A study of Homo sapiens with 6 samples.

Results

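The human histone genes were described in polyadenylated RNA of LX-2 cells given TGF-β with or without LIG. Members were the genes whose symbols carry a histone name (H1-, H2AC, H2BC, H3C or H4C with a number, or H2AZ, H2AX, H2AJ, H3-3A, H3-3B or MACROH2A), 74 of the 22701 genes in the deposited table. They comprised 60 replication-dependent genes, 10 variant genes, and 4 rows kept apart from both, namely the non-coding neighbours H1-10-AS1, H2AZ1-DT and H2AZ2-DT and the histone-like gene H2BC12L. LX-2 is an established line of human hepatic stellate cells, which lay down collagen in liver fibrosis.

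The 3 LIG libraries came from cells given 20 µM LIG (ligustilide, a phthalide of Angelica and Ligusticum roots) together with TGF-β, and the 3 TGF-β libraries from cells given TGF-β alone. Both groups thus carry TGF-β, an activator of stellate cells, at a labelled dose of 5 µg/mL. The study asked how LIG alters expression in these cells. The labels call the cells transfected with these agents and state no length of treatment. Whether replicates were grown separately is not stated either, so p-values measure the spread between these samples, which may be technical. No library without TGF-β was analysed here.

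Histones are the proteins around which DNA is wound: pairs of H2A, H2B, H3 and H4 form the nucleosome core, and H1 binds the linker DNA between cores. Replication-dependent genes lie in clusters, as a rule lack introns, and are transcribed mainly in S phase. Their mRNAs characteristically end just after a short hairpin, the stem-loop, which is bound by SLBP in place of a poly(A) tail, although several of these genes also give polyadenylated RNA, above all in differentiated cells. Variant genes as a rule stand alone, are transcribed through the cell cycle, and end their mRNAs with an ordinary poly(A) tail, although H2AX also holds a stem-loop, given below. Selection for poly(A) therefore favours the variants, and a replication-dependent gene's value here is not its total mRNA, which may hold for H2AX too.

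The sequences at the 3′ end show the distinction between these ways of ending an mRNA. The stem-loop was searched as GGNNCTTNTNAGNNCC on the coding strand of GENCODE release 29 coding transcripts (GRCh38), and was found in 10 of the 14 replication-dependent genes with a mean of at least 1 FPKM (fragments scaled to the length of the gene model and to the library total), called detected here, and in 17 of the 46 with less. Over all coding genes 110 of 19684 (0.559%) held it, and 28 of these were histone genes of the naming rule. Many histone models in this release stop at the end of the coding sequence, so a missing motif says nothing of the gene. The stem-loop is given below in capitals for genes of each core family (H2A, H2B, H3 and H4) and for H2AX, the 1 variant of 10 that holds it. The coordinates are those of the capitals.
H2AC6, chr6:26124669-26124684, plus strand: cccaaaGGCTCTTTTCAGAGCCccccta
H2BC4, chr6:26123472-26123487, minus strand: cccaaaGGCTCTTTTAAGAGCCacccag
H2BC21, chr1:149886188-149886203, minus strand: tccaaaGGCTCTTTTCAGAGCCacccac
H3C10, chr6:27810516-27810531, plus strand: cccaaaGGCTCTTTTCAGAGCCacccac
H4C8, chr6:26285131-26285146, minus strand: accaaaGGCCCTTTTCAGGGCCgcccac
H2AX, chr11:119094898-119094913, minus strand: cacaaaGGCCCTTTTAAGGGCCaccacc

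The capitals read as an inverted repeat around a short run rich in T, and the H2A, H2B and H3 genes shared the outer letters GGCTCT and AGAGCC, while H4C8 and H2AX carried GGCCCT and AGGGCC. In 9 of the 10 detected genes with the motif, and in 10 of the 17 such genes below 1 FPKM, an annotated transcript ran on for at least 100 bases past it. A poly(A) signal, searched as AATAAA or ATTAAA in the last 50 bases of a transcript, ended a transcript of 10 of the 14 detected genes and of 10 of the 46 below 1 FPKM. It ended a transcript of 9 of the 10 variants, and of 81.9% of all coding genes. For H2AC6, H2BC4 and H4C8 this signal lies far beyond the stem-loop in the genome, on an annotated transcript from which an intron is removed. The signals below, in capitals, are those of annotated transcripts of the same replication-dependent genes and of H2AX, beside that of H2AZ1, the most abundant histone gene in these libraries.
H2AC6, chr6:26139088-26139093, plus strand: ctggcatgaggtAATAAAaggtaatgc
H2BC4, chr6:26114890-26114895, minus strand: cataaagacaaaATTAAAataactcctagt
H2BC21, chr1:149884477-149884482, minus strand: gctattgttattAATAAAgttaccaattaa
H3C10, chr6:27811278-27811283, plus strand: tttgtatgactaAATAAAatctgtataatc
H4C8, chr6:26281074-26281079, minus strand: caataaaaggtgAATAAAatcaggtcactc
H2AX, chr11:119093893-119093898, minus strand: tggactaattttATTAAAggattgtttttt
H2AZ1, chr4:99948102-99948107, minus strand: gtggataagttcAATAAAggtcatatccca

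The libraries were even in depth. The deposited FPKM values correspond to 38401783 to 39260090 fragments per library in the LIG group and 38567921 to 39005172 in the TGF-β group. Of 10 stellate markers all were listed, COL1A1 among them at 496 to 515 FPKM with LIG and 618 to 691 FPKM with TGF-β alone, and 3 of the 10 (COL3A1, SPARC and LOX) were lower with LIG at a limma adjusted p of 0.05 or less, beside 0.505% of all tested genes. Of the other 7 none passed, and 4 of the 10 had a log2 difference above 0, among them TIMP1, at 138 to 179 FPKM with LIG and 120 to 136 FPKM with TGF-β alone (limma adjusted p = 0.563). The others of these 4 were VIM, COL1A2 and ACTA2. COL1A2 was low, at 3.24 to 5.08 FPKM with LIG and 0.675 to 6.725 FPKM with TGF-β alone. ACTA2 was low too, at 2.75 to 3.23 FPKM with LIG and 2.11 to 3.43 FPKM with TGF-β alone. The call for LOX held in 18 of 18 alternatives, and those for COL3A1 and SPARC in 14 and 9 of them, both losing it without some single libraries (COL3A1 without LIG replicate 2 or TGF-β replicate 1 or 3, SPARC without any but LIG replicate 3). Endothelial markers were under 1 FPKM in every library, PTPRC, the pan-leukocyte marker, was at no more than 0.016 FPKM, and CD68 stood at 13.4 to 14.9 FPKM with LIG and 12.1 to 14.3 FPKM with TGF-β alone. LIG replicate 3 and TGF-β replicate 2 stood apart from the other libraries of their groups, which touches the histone values as described further on.

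Histone mRNA in these libraries was mostly variant mRNA. The 10 variants summed to 1406, 1383 and 1714 FPKM in LIG replicates 1 to 3, against 1369, 1632 and 1477 FPKM in TGF-β replicates 1 to 3. The 60 replication-dependent genes summed to 184, 182 and 213 FPKM with LIG, against 169, 185 and 167 FPKM with TGF-β alone. The groups overlapped in both sums. The ratio of the sums did not overlap: the variants held 7.65, 7.59 and 8.06 times the level of the replication-dependent genes in LIG replicates 1 to 3, against 8.11, 8.80 and 8.87 times in TGF-β replicates 1 to 3. The replication-dependent genes made 0.0564%, 0.0554% and 0.0587% of the summed FPKM of all genes with LIG, against 0.0521%, 0.0532% and 0.0506% with TGF-β alone. That share was thus larger in every LIG library, also when H2BC12, the most abundant of these genes, was left out (0.0301% to 0.0319% with LIG and 0.0286% to 0.0296% with TGF-β alone). By family, only the H2B genes separated in this way (0.0367% to 0.038% with LIG and 0.0324% to 0.0343% with TGF-β alone). The shares of the H1, H2A, H3 and H4 genes overlapped between the groups, as did that of the genes below 1 FPKM. These sums, shares and ratios over chosen genes were not tested, and how often those of other gene sets separate was not counted. Of single tested genes, 15.8% had groups that did not overlap. The margin of the ratio was narrow, 8.06 against 8.11. H2AZ1 held most of the variant sum (a mean of 820 of 1497 FPKM), and H2BC12 held 43.4% to 45.7% of the replication-dependent sum. In bulk RNA, a difference in the share of cells in S phase and a difference in histone RNA per cell cannot be told apart. All 10 variants passed the filter of a mean of at least 1 FPKM over the 6 libraries, but of the replication-dependent genes only 14 of 60 did.

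**Figure D1:**
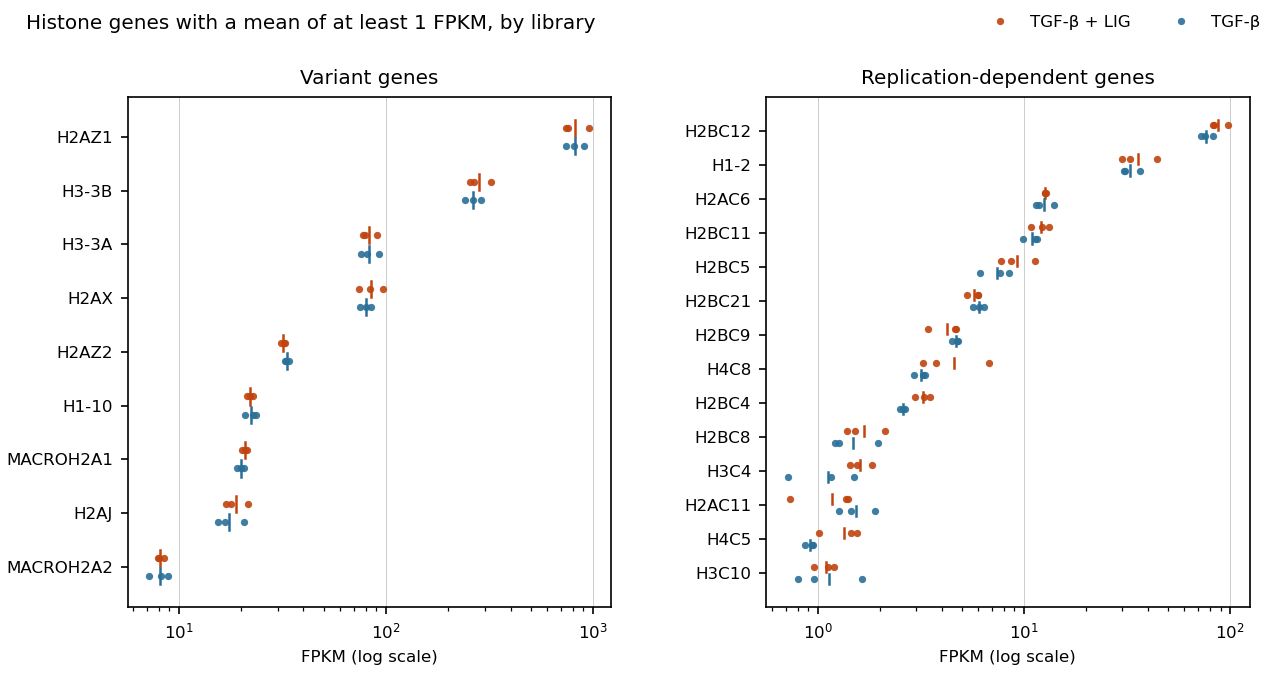
FPKM (log scale) of 23 of the 24 tested histone genes in each library, variants on the left and replication-dependent genes on the right, with LIG libraries above TGF-β libraries for each gene (points, libraries; ticks, group means). Variant levels run from about 8.12 to 820 FPKM and replication-dependent levels from 1.11 to 82.2 FPKM by mean, and in all rows but those of H2BC4, H4C5 and H2BC12 the points of the groups overlap.

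None of these genes was called different between the groups. In a limma fit over all 10695 genes with a mean of at least 1 FPKM, on log2(FPKM + 1) and with Benjamini-Hochberg adjustment at 0.05, 0 of 14 replication-dependent and 0 of 10 variant genes passed, beside 74 of all tested genes (0.692%). At an unadjusted p under 0.05 there were 2 replication-dependent genes and 0 variants, beside 8.41% of all tested genes. The median log2 change, LIG minus TGF-β alone, was 0.12 over the 14 replication-dependent genes and 0.00 over the variants, beside 0.03 over all tested genes. Of the replication-dependent genes 10 of 14 had a change above 0, and of the variants 5 of 10, against 60.9% of all tested genes. These shares describe the lists, which differ in level and in number from the background.

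Among the linker histones, H1-10, a variant H1 expressed outside the clusters, gave 21.4, 22.0 and 22.8 FPKM with LIG and 20.9, 23.6 and 22.8 FPKM with TGF-β alone, a log2 difference of -0.02. The LIG values lay inside the range of the TGF-β values. H1-2, the one replication-dependent H1 of 5 above 1 FPKM, gave 32.6, 30.1 and 44.4 FPKM with LIG and 30.9, 36.7 and 30.5 FPKM with TGF-β alone. Its spread with LIG came from replicate 3, and the log2 difference of 0.11 ± 0.14 (SE, n = 3 each; limma adjusted p = 0.939) lay within it. The other 4 members of this H1 family were all below 1 FPKM.

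The H2A variants held the highest values. H2AZ1 encodes H2A.Z, which sits at promoters and enhancers, and it measured 761, 740 and 959 FPKM in LIG replicates 1 to 3 and 743, 909 and 809 FPKM in TGF-β replicates 1 to 3. LIG replicate 3 and TGF-β replicate 2 were the highest of their groups, and the means were 820 ± 121 FPKM with LIG and 821 ± 83.6 FPKM with TGF-β alone (SD, n = 3 each), a log2 difference of -0.01. H2AZ2, which encodes the other H2A.Z protein, was far lower, at 32.3, 31.1 and 32.6 FPKM with LIG and 32.5, 33.9 and 33.1 FPKM with TGF-β alone. Its highest LIG library lay just above its lowest TGF-β library, and its log2 difference was -0.05.

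H2AX, whose protein is phosphorylated beside DNA breaks, gave 73.8, 84.0 and 96.8 FPKM with LIG and 74.9, 85.0 and 80.1 FPKM with TGF-β alone. Its LIG values spanned all TGF-β values, with a log2 difference of 0.08. H2AJ, an H2A variant that has been described in senescent fibroblasts, gave 16.9, 17.9 and 21.7 FPKM with LIG and 15.4, 20.6 and 16.6 FPKM with TGF-β alone. MACROH2A1, one of the pair of macroH2A genes whose proteins carry a large extra domain and mark silent chromatin, gave 20.3, 20.8 and 21.4 FPKM with LIG and 19.2, 20.7 and 19.9 FPKM with TGF-β alone. MACROH2A2, the other of the pair, gave 7.90, 8.03 and 8.52 FPKM with LIG and 7.22, 8.90 and 8.17 FPKM with TGF-β alone. In all 4 the groups overlapped (15.8% of all tested genes had groups that did not), and log2 differences ran from 0.01 for MACROH2A2 to 0.10 for H2AJ.

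The H3 variants H3-3A and H3-3B encode the same H3.3 protein, which is deposited outside replication. H3-3B measured 268, 255 and 321 FPKM in LIG replicates 1 to 3 and 241, 287 and 263 FPKM in TGF-β replicates 1 to 3, a log2 difference of 0.09 ± 0.11 (SE, n = 3 each; limma adjusted p = 0.931). H3-3A measured 79.7, 77.4 and 90.4 FPKM with LIG and 75.9, 92.2 and 80.9 FPKM with TGF-β alone, a log2 difference of -0.01. Together they summed to 347, 333 and 411 FPKM with LIG and 317, 379 and 344 FPKM with TGF-β alone. All 12 replication-dependent H3 genes summed to 3.87, 4.75 and 4.28 FPKM with LIG and 3.58, 4.90 and 3.20 FPKM with TGF-β alone. The H3.3 genes thus held far more polyadenylated RNA than the replication-dependent H3 genes in both groups. CENPA, the centromeric H3 variant, which falls outside the naming rule, gave 28.1, 30.2 and 34.3 FPKM with LIG and 29.1, 32.3 and 29.3 FPKM with TGF-β alone. All 10 variants had a 95% interval that lay within 1.5-fold either way on the log2(FPKM + 1) scale.

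All 10 variants peaked in the same library of each group, though by unlike amounts. In 10 of 10 variants LIG replicate 3 was the highest LIG library and TGF-β replicate 2 the highest TGF-β library, against 3853 of 10695 tested genes (36.0%) and 6 of 14 replication-dependent genes (42.9%). The summed FPKM of all genes was 362034 in LIG replicate 3, against 325762 and 328780 in the other LIG libraries, and 348518 in TGF-β replicate 2, against 324022 and 328949 in the other TGF-β libraries. As a share of that sum the variants made 0.473% in LIG replicate 3, with 0.432% and 0.421% in the other LIG libraries. They made 0.468% in TGF-β replicate 2, with 0.423% and 0.449% in the others. H2AZ1 held most of the variant sum (a mean of 820 of 1497 FPKM), so this share need not describe each variant. H1-10, H2AZ2, MACROH2A1 and MACROH2A2 rose less in LIG replicate 3 than the summed FPKM of all genes did. H2AZ2 measured 32.6 FPKM there, with 32.3 and 31.1 FPKM in the other LIG libraries. PCNA, the replication clamp, was highest in the same libraries (196 FPKM in LIG replicate 3 and 193 FPKM in TGF-β replicate 2), and MKI67, a proliferation marker of very long mRNA, was lowest there (27.0 FPKM in LIG replicate 3 and 22.9 FPKM in TGF-β replicate 2, with 39.6 to 43.3 FPKM in the other 4). The part of these library differences in the histone values was not tested beyond leaving the libraries out. Without both libraries, 1 variant and 1 replication-dependent gene were called, the second being H2BC12, higher with LIG (log2 difference 0.16, limma adjusted p = 0.0378), in a setting that called 497 of all 10695 genes (4.65%). Over the 18 alternatives no other setting called a histone gene.

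**Figure D2:**
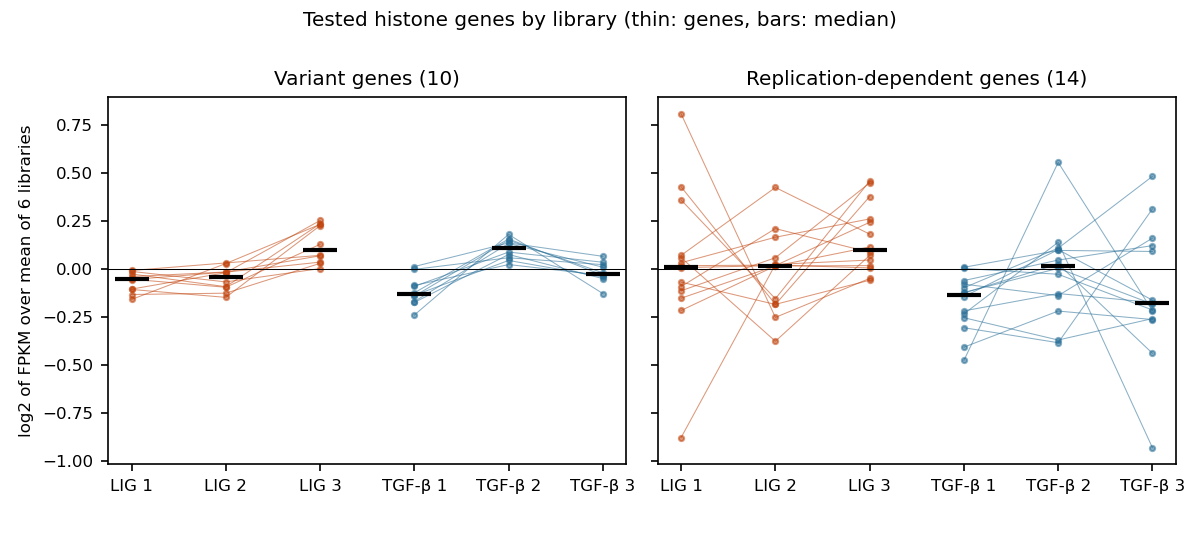
log2 of FPKM over the gene's mean of 6 libraries, for the 10 variants (left) and the 14 tested replication-dependent genes (right), with LIG libraries left of TGF-β libraries (thin lines, genes; bars, medians). All 10 variants peak in LIG replicate 3 and TGF-β replicate 2 of their groups, which 6 of the 14 replication-dependent genes do.

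The replication-dependent genes differed widely in level. H2BC12, a cluster H2B gene, took 43.4% to 45.7% of the summed FPKM of all 60, and H1-2 another 16.5% to 20.9%. Of the 14 detected genes 13 lie on chromosome 6 and 1, H2BC21, on chromosome 1, against 37 and 9 of the 46 others. By family, 7 of 15 H2B genes, 2 of 15 H2A, 2 of 12 H3, 2 of 13 H4 and 1 of 5 H1 genes reached a mean of 1 FPKM. The H2B genes summed to 127 ± 9.68 FPKM with LIG and 112 ± 6.59 FPKM with TGF-β alone (SD, n = 3 each). The H2A genes summed to 18.3 ± 0.42 FPKM with LIG and 18.3 ± 1.06 FPKM with TGF-β alone. The H4 genes summed to 7.54 ± 1.93 FPKM with LIG and 5.98 ± 0.62 FPKM with TGF-β alone, although nucleosomes hold these core histones in equal numbers.

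**Figure D3:**
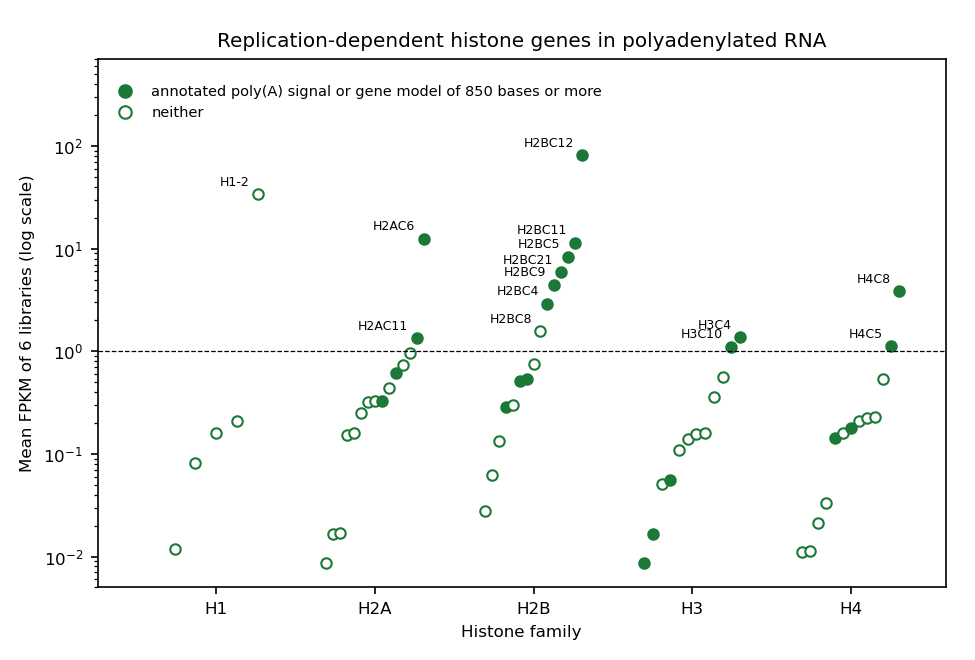
Mean FPKM over 6 libraries (log scale) of each of the 60 replication-dependent genes by histone family, ordered by level within a family, with the filter of 1 FPKM as a dashed line. Filled points have an annotated poly(A) signal or a gene model of 850 bases or more, a length chosen after the values were seen. Above the line 12 of the 14 genes are filled, against 10 of the 46 below it. By the poly(A) signal alone these counts are 10 of 14 and 10 of 46.

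H2BC12 gave 82.5, 83.1 and 97.2 FPKM in LIG replicates 1 to 3 and 75.5, 82.3 and 72.4 FPKM in TGF-β replicates 1 to 3. Every LIG library lay above every TGF-β library, with TGF-β replicate 2 close under the lowest LIG value. The log2 difference was 0.19 with a 95% interval of -0.01 to 0.39 and a limma adjusted p of 0.624. Within the GENCODE model 28.4% of its 100-base words also occur in H2BC12L, a near copy, so reads could be split between them in a way not stated, but H2BC12L was listed at no more than 0.278 FPKM in any library.

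H2BC4 had the smallest p of all members. It gave 2.98, 3.26 and 3.49 FPKM with LIG and 2.5, 2.66 and 2.58 FPKM with TGF-β alone, so the groups did not overlap. The log2 difference was 0.24 with a 95% interval of 0.08 to 0.41, an unadjusted p of 0.00874 and an adjusted p of 0.303 (limma). H2BC5 gave 7.70, 8.68 and 11.4 FPKM with LIG and 7.64, 8.49 and 6.15 FPKM with TGF-β alone. Its groups overlapped, and the log2 difference of 0.28 had an interval of -0.06 to 0.61. It was 0.13 without LIG replicate 3 and 0.16 without TGF-β replicate 3.

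Among the other H2B genes, H2BC11 gave 10.8, 13.3 and 12.2 FPKM with LIG and 11.5, 11.3 and 9.91 FPKM with TGF-β alone. H2BC21, the H2B gene of the chromosome 1 cluster detected here, gave 5.31, 5.96 and 5.97 FPKM with LIG and 5.65, 6.09 and 6.41 FPKM with TGF-β alone. H2BC9 gave 4.65, 3.44 and 4.69 FPKM with LIG and 4.49, 4.77 and 4.75 FPKM with TGF-β alone. The 3 genes overlapped between the groups, and their log2 differences were 0.14, -0.06 and -0.12 in that order. H2BC8 was low, at 2.12, 1.38 and 1.51 FPKM with LIG and 1.27, 1.21 and 1.96 FPKM with TGF-β alone.

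For H2A, the replication-dependent H2AC6 gave 12.7, 12.7 and 12.6 FPKM with LIG and 11.9, 11.4 and 14 FPKM with TGF-β alone. The LIG values were tighter than the TGF-β values and lay inside their range (log2 difference 0.03). H2AC11 gave 0.73, 1.37 and 1.39 FPKM with LIG and 1.26, 1.46 and 1.89 FPKM with TGF-β alone, the lowest log2 difference of the members at -0.23, with an interval of -0.56 to 0.09. Without LIG replicate 1 it was -0.08.

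For H3, H3C4 gave 1.43, 1.83 and 1.55 FPKM with LIG and 1.16, 1.5 and 0.72 FPKM with TGF-β alone, a log2 difference of 0.31 with an interval that just included 0 and a limma adjusted p of 0.592. It was 0.16 without TGF-β replicate 3 and 0.56 with voom on the recovered fragments, and was called in neither. All 100-base words of its GENCODE model lie in a same-strand gene model that overlaps it, so its reads cannot be assigned to it alone. H3C10 gave 0.96, 1.13 and 1.21 FPKM with LIG and 0.80, 1.64 and 0.96 FPKM with TGF-β alone.

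For H4, H4C5 gave 1.44, 1.01 and 1.55 FPKM with LIG and 0.94, 0.87 and 0.94 FPKM with TGF-β alone. Those values rest on 23, 16 and 25 fragments with LIG and 15, 14 and 15 with TGF-β alone. These groups did not overlap, but the margin was narrow, 16 fragments in LIG replicate 2 against 15 in TGF-β replicates 1 and 3. The log2 difference was 0.28 with an interval of 0.06 to 0.50, an unadjusted p of 0.0202 and an adjusted p of 0.428 (limma). H4C8 gave 6.77, 3.25 and 3.74 FPKM with LIG and 2.92, 3.32 and 3.22 FPKM with TGF-β alone, or 107, 51 and 60 fragments with LIG and 46, 53 and 51 with TGF-β alone. LIG replicate 1 alone stood out. The log2 difference of 0.38, the highest of the members on log2(FPKM + 1), had the widest interval, -0.08 to 0.84. Without that library it was 0.11, below those of H2BC5 (0.39) and H3C4 (0.35) in the same setting. With voom on the recovered fragments the difference for H4C8 was 0.46, below those of H3C4 (0.56) and H4C5 (0.50). H2BC4, H4C5 and H2BC12 were thus the 3 of 14 replication-dependent genes whose LIG libraries all lay above the TGF-β libraries, where 9.07% of all tested genes did, and 0 of 14 lay wholly below, where 6.73% did. For genes near 1 FPKM the log2(FPKM + 1) scale understates a difference, and with voom on the recovered fragments it was 0.50 for H4C5, 0.18 for H2BC8 and -0.42 for H2AC11, none of them called (limma adjusted p = 0.729, 0.949 and 0.822 in that order).

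**Figure D4:**
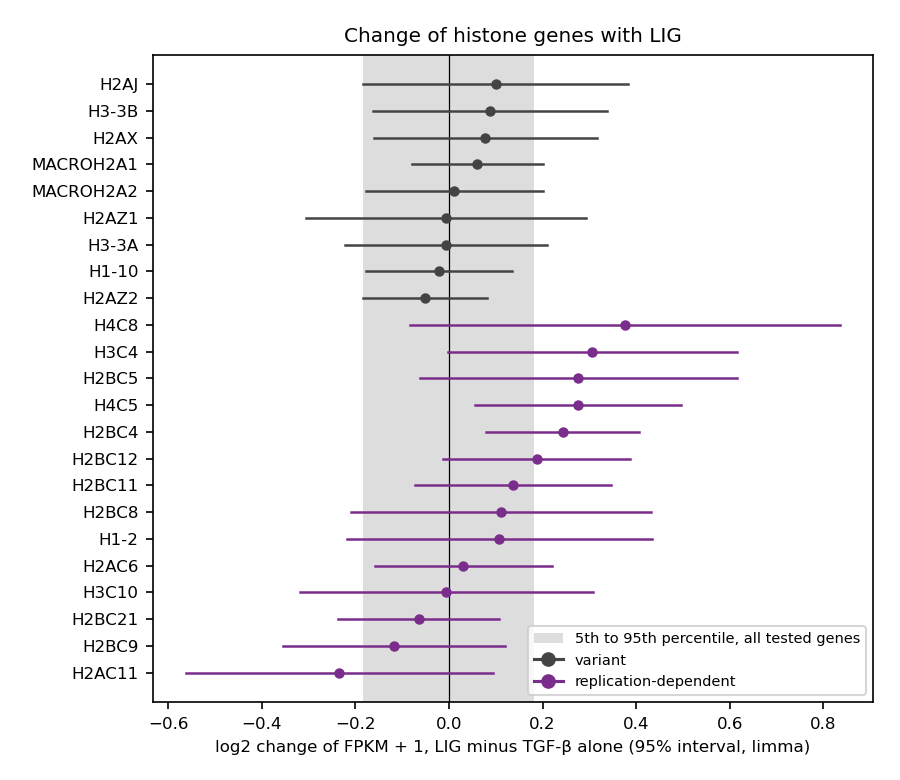
log2 change of FPKM + 1, LIG minus TGF-β alone, with limma's 95% interval for 23 of the 24 tested histone genes (grey, variants; purple, replication-dependent), beside the 5th to 95th percentile of all tested genes (shaded). The points run from -0.23 for H2AC11 to 0.38 for H4C8, and none passed the adjusted threshold.

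The 46 replication-dependent genes under 1 FPKM rested on few fragments. They summed to 250, 260 and 223 fragments in LIG replicates 1 to 3 and 234, 239 and 222 fragments in TGF-β replicates 1 to 3, with a median of 3 fragments per gene and library. All 46 had a fragment in some library, 23 had none in at least 1 library, and 28 had fewer than 10 in every library. The highest were H2AC13 (0.92 ± 0.12 FPKM with LIG and 1.02 ± 0.17 FPKM with TGF-β alone), H2BC17 (0.83 ± 0.59 FPKM with LIG and 0.68 ± 0.58 FPKM with TGF-β alone) and H2AC8 (0.91 ± 0.38 FPKM with LIG and 0.55 ± 0.10 FPKM with TGF-β alone; SD, n = 3 each). Next came H2AC18 (0.68 ± 0.26 FPKM with LIG and 0.56 ± 0.11 FPKM with TGF-β alone) and H3C3 (0.53 ± 0.27 FPKM with LIG and 0.58 ± 0.21 FPKM with TGF-β alone). No gene of the 46 had groups that did not overlap, beside 7.57% of all 12006 genes under the filter, and none was called in the fit with no filter, where the smallest adjusted p of any histone gene was 0.50 (limma). In 12 of the 46, against 1 of the 14 detected genes, 0.5 or more of the 100-base words also occur in another gene, so their fragments depend on how shared reads were counted, which is not stated.

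Replication-dependent genes above and below the filter differed in their annotated ends. A transcript poly(A) signal or a gene model of 850 bases or more, a length chosen after the values were seen, was found in 12 of the 14 detected genes and in 10 of the 46 others. The FPKM steps imply a model of 887 bases for H2BC12, 2224 for H2BC21, 2426 for H2BC4 and 1320 for H2BC5, longer than the coding region, whereas H2BC9 (462 bases), H2BC11 (480), H2AC6 (519) and H4C8 (409) had short models, so fragments on their longer transcripts beyond the model could not enter the value. The exceptions were H1-2 and H2BC8, with neither feature, although an annotated transcript of H2BC8 runs 1059 bases past its stem-loop. These are properties of the annotation and the values, and no test was made of them.

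The promoters of the replication-dependent genes carried the shared elements known for this family. Among the 300-base windows of RefSeq (GRCh38.p14, 250 bases before the start and 50 after), 55 of the 60 genes had an entry. The motifs were searched on both strands, as CCAAT, as TATAAA and as the octamer ATTTGCAT, none of which contains another. CCAAT was in 46 of the 55 (83.6%, against 35.7% of all 27305 windows), TATAAA in 37 (67.3%, against 12%) and the octamer in 23 (41.8%, against 1.80%). The octamer, the element bound by OCT1 in H2B promoters, was in 12 of 15 H2B and 10 of 14 H2A windows, in 1 of 10 H3 windows and in 0 of 11 H4 windows. CCAAT was in every H1, H2A, H2B and H3 window listed but in 2 of 11 H4 windows. Detected genes held the octamer in 9 of 14 windows and the others in 14 of 41.

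Of the divergent pairs of starts within 400 bases, 9 joined an H2A and an H2B gene, 194 to 248 bases apart, so that a pair shares 1 promoter region and H2A and H2B windows are not independent. The window of H2BC4, shown because this gene had the smallest p and because it also holds the start of H2AC6, reads as follows, with the 5 motif matches in capitals on either strand (chr6:26123877-26124176, minus strand, GRCh38.p14).
H2BC4 promoter: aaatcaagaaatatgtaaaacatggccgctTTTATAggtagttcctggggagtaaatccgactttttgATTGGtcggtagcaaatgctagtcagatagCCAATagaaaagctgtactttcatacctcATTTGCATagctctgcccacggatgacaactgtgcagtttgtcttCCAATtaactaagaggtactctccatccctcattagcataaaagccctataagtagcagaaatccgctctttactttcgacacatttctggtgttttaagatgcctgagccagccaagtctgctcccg

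The genes on the sides of this window had unlike values. H2AC6 averaged 12.7 ± 0.07 FPKM with LIG and 12.5 ± 1.40 FPKM with TGF-β alone, and H2BC4 3.24 ± 0.26 FPKM with LIG and 2.58 ± 0.08 FPKM with TGF-β alone (SD, n = 3 each). In 6 of the 9 pairs the H2B gene had the higher mean, as with H2BC11 (11.5 FPKM over the 6 libraries) beside H2AC11 (1.35 FPKM) and H2BC21 (5.90 FPKM) beside H2AC20 (0.435 FPKM). Other partners were closer, as with H2BC15 (0.533 FPKM) beside H2AC15 (0.320 FPKM).

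The genes that make, process and deposit histones were read beside them. Of 20 genes of histone mRNA processing and transcription, 0 passed the test, with a median log2 change of -0.01. SLBP, which binds the stem-loop, gave 38.6, 38.2 and 44.6 FPKM with LIG and 39.2, 44.8 and 40.5 FPKM with TGF-β alone. CDK2, the kinase that activates the histone transcription factor NPAT, gave 50.3, 51.0 and 50.3 FPKM with LIG and 51.0, 57.6 and 51.8 FPKM with TGF-β alone. Neither passed (limma adjusted p = 0.978 for SLBP and 0.870 for CDK2). Of 15 genes of cleavage and polyadenylation 0 passed, with a median of 0.01. Of 25 tested genes of histone chaperones and deposition 0 passed, with a median of 0.03, the most abundant being SSRP1 of the FACT complex (129 to 142 FPKM with LIG and 126 to 131 FPKM with TGF-β alone).

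The cell cycle lists gave the same count. Of 30 S phase genes 0 passed, with a median of -0.06, and 7 of the 30 had all LIG libraries below all TGF-β libraries, where 6.73% of all tested genes did. Of 25 genes of G2 and mitosis 0 passed, with a median of 0.03. CCNB1, the mitotic cyclin, stood at 249 to 289 FPKM with LIG and 245 to 272 FPKM with TGF-β alone. Of 32 RNAs that have no poly(A) tail, such as small nuclear RNAs, 0 were listed in the table, so the efficiency of the selection for poly(A) could not be read from them.

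Among 9 tested HMG genes, which encode the other abundant chromatin proteins, 1 passed, beside 0.692% of all tested genes. HMGA1, an architectural protein that binds AT-rich DNA, gave 126, 136 and 149 FPKM with LIG and 98.1, 97.8 and 99.5 FPKM with TGF-β alone. All LIG libraries lay above all TGF-β libraries, with a log2 difference of 0.47 ± 0.08 (SE, n = 3 each) and a limma adjusted p of 0.0450. The call held in 9 of the 18 alternatives, with log2 differences of 0.40 to 0.53, and was lost without any one library other than LIG replicate 3 (limma adjusted p = 0.0821 to 0.262). The other 8, led by HMGN2 and HMGB1, did not pass. In 2 of the 9, HMGA1 and HMGA2, all LIG libraries lay above all TGF-β libraries, where 9.07% of all tested genes did. HMGA2 gave 7.429 to 7.845 FPKM with LIG and 6.45 to 6.555 FPKM with TGF-β alone, a log2 difference of 0.21 (limma adjusted p = 0.288).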

How the data were processed

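Polyadenylated RNA of 6 LX-2 libraries was sequenced, 3 with LIG and TGF-β and 3 with TGF-β alone. The deposited table holds FPKM values, per the file headers, which the authors computed. Tools listed in the submitters' processing notes, without roles, are DESeq2, fastp and HISAT2 2.1.0, with GRCh38.p13 as the build, while the counting tool, annotation, strand use and handling of shared reads are not given in the sources used here. All 22701 genes gave whole fragments from the FPKM steps, with 100% of 114123 values above 0 whole within 0.01, and library totals were calibrated on the RefSeq spans of 524 genes. Intervals cover sampling between libraries, and fragments are not corrected for PCR copies.

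Genes with a mean of at least 1 FPKM (10695) entered limma 3.58.1 as log2(FPKM + 1) (R 4.3.3; group only, empirical Bayes with trend, two-sided, Benjamini-Hochberg over all tested genes, threshold 0.05). This scale understates changes of low genes. An exact permutation test of 3 against 3 cannot go below 0.1, so none was used. The test was checked on simulated data. Replication-dependent genes were those named H1-1 to H1-6 or H2AC, H2BC, H3C or H4C with a number. The rule for naming gave values for all members above the filter, the 5 highest below it, and members of other lists that passed or were most abundant. PCNA and MKI67 were named for the library differences, and HMGA2 beside HMGA1, after their values were seen. The members and all lists were chosen with earlier results of these data known. Alternatives were other pseudocounts, filters, scalings, limma without trend, voom on the recovered fragments, a replicate block, and leaving out libraries.

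Gene models and overlaps came from GENCODE release 29, promoters from RefSeq on GRCh38.p14. Genes whose exons overlap another on the opposite strand (H1-10, H2AZ1, H3-3A, H3-3B, MACROH2A1 and MACROH2A2) could share reads, since strand use is not stated. H3-3A also shares 10.3% of its 100-base words with pseudogenes. The promoter table had no entry used here for the replication-dependent H2AC12, H3C11, H3C12, H4C1 and H4C3. The results of 1 variant by itself are not reported here.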

Additional observations from a re-analysis of the deposited data

How the results depend on the processing

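Of 424 single-gene log2 changes under 18 alternatives, 397 kept their direction and side of the threshold, and 14 of 24 genes never changed sign. The count of all genes called was 74, against 14 with no filter, 22 with the replicate block and 497 without both TGF-β replicate 2 and LIG replicate 3. Leaving out 1 library gave 11 (without TGF-β replicate 3) to 93 (without LIG replicate 3). The replicate numbers did not pair the samples (same-number correlations of deviations 0.469, -0.574 and -0.337), and with the block 0 members were called. Only the setting without both libraries called members, 1 replication-dependent (H2BC12, 0.163) and 1 variant; in the other settings the smallest adjusted p of a member ran from 0.222 to 0.878 (limma). The median of the replication-dependent genes was 0.0144 with no filter and 0.0315 at a mean of at least 0.1 FPKM, where genes of few fragments enter, and up to 0.202 without LIG replicate 2. The causes were not tested.

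Signs turned for members near 0. H3C10 became 0.0119 with a pseudocount of 0.1, 0.00297 with quantile normalization, 0.0153 with voom and 0.12 without both libraries. MACROH2A2 became -0.0067 as TPM, -0.0153 with quantile normalization and -0.00913 with median centring. H3-3A became 0.00381 and H2AC6 -0.0204 without both libraries. With 1 library left out, signs also turned for H2AZ1 (range -0.123 to 0.071), H3-3A (-0.0734 to 0.0705), H2BC8 (-0.00544 to 0.244), H3C10 (-0.117 to 0.158), H2AX (-0.0203 to 0.173), H3-3B (-0.00954 to 0.154), MACROH2A2 (-0.0594 to 0.075), H1-2 (-0.0564 to 0.217), H1-10 (-0.0706 to 0.0151) and H2AC6 (-0.0244 to 0.114). The smallest adjusted p among all turned values was 0.493.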

Other observations

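The 4 rows kept apart from the histone genes were all under 1 FPKM in every library. H1-10-AS1, antisense to H1-10, gave 36, 26 and 33 fragments in LIG replicates 1 to 3 and 40, 26 and 40 in TGF-β replicates 1 to 3. H2BC12L gave 4, 3 and 3 fragments with LIG and 5, 1 and 1 with TGF-β alone. H2AZ1-DT, a divergent transcript at H2AZ1, gave 1, 2 and 0 fragments with LIG and 2, 6 and 1 with TGF-β alone. H2AZ2-DT had 1 fragment in LIG replicate 3 and was listed at 0 in the other 5 libraries.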
